A study of Mus musculus with 32 samples.

Results

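The dynein, CFAP, DRC, radial spoke and SPAG genes of the motile axoneme were followed in mouse brain tumors driven by MYC or by MYCN. Members were the protein-coding genes whose mouse symbol begins with Dnah, Dnaic, Dnaaf, Cfap, Drc or Rsph and a number, with Dnali1 and the Spag6, Spag16 and Spag17 genes. The rule used names and no expression value, and 64 of the 37310 genes in the count table met it. A further 4 symbols that fit the rule (Cfap73, Cfap99, Dnah7a and Dnah7c) have no row and were not analysed here. The tumors were 6 GMYC and 8 GTML biopsies. For its own comparison of the models the study kept the tumors it classed as Group 3 medulloblastoma and set aside a GTML tumor that also had an SHH-like signature. The labels do not name that tumor, so every GTML biopsy was kept here, and values without GTML 2, which stood apart, are given as well. In its gene set analysis of the models the study had already reported genes of cilium movement as higher in GTML tumors. In GMYC mice (Glt1-tTA/TRE-MYC, kept in the FVBN strain) the tetracycline transactivator is made from the Glt1 promoter, which is active in glial and progenitor cells, and turns on a MYC transgene unless doxycycline is given. GTML is the corresponding model with MYCN under the same promoter. The study gives FVB/N as the background of every transgenic cross it used, and the labels give no treatment for these tumors. A biopsy holds all cells of the piece taken, the labels state neither age nor sex, and they do not say that each biopsy came from its own animal. Part of the GTML data was generated earlier than the GMYC data, and the labels do not show which, so model and time of sequencing cannot be told apart. Total counts were 4602294 to 7279811 per tumor.

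A motile cilium or sperm flagellum is built on microtubule doublets around a central pair, and outer and inner dynein arms on the doublets slide them past each other. Radial spokes, the nexin-dynein regulatory complex and the central apparatus set when and where the arms pull, and microtubule inner proteins stiffen the doublets. Dynein arms are put together in the cytoplasm by assembly factors before they enter the cilium. In the brain these genes are known for their high use in ependymal and choroid plexus cells, which carry motile cilia, while most neurons and glia bear a primary cilium without dynein arms. Foxj1 and the RFX factors are the best known transcription regulators of the programme.

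Of the 64 members, 57 were tested, having a CPM (the count of a gene scaled to the total of its library) over 1 in no fewer than 3 tumors, a filter that a gene high in either model can pass. The 7 below it were Dnah14, Spag17, Cfap299, Rsph6a, Cfap161, Drc7 and Cfap97d1, none of which exceeded 2.49 CPM in any tumor. On the RPKM scale, which divides CPM by exon length in kilobases, 6 members stood between 13.2 and 33.0 in both models. These were Cfap20, Cfap36, Cfap97, Cfap298, Dnaaf2 and Dnaaf5. Dnaic1, an intermediate chain of the outer arm, was among the highest in GMYC tumors with a mean of 24.2 RPKM, and its GTML mean was 6.79 RPKM. Among the dynein heavy chains Dnah8 had 4.53 RPKM and Dnah7b 1.43 RPKM in GMYC tumors, and the others had 0.78 RPKM or less.

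**Figure D1:**
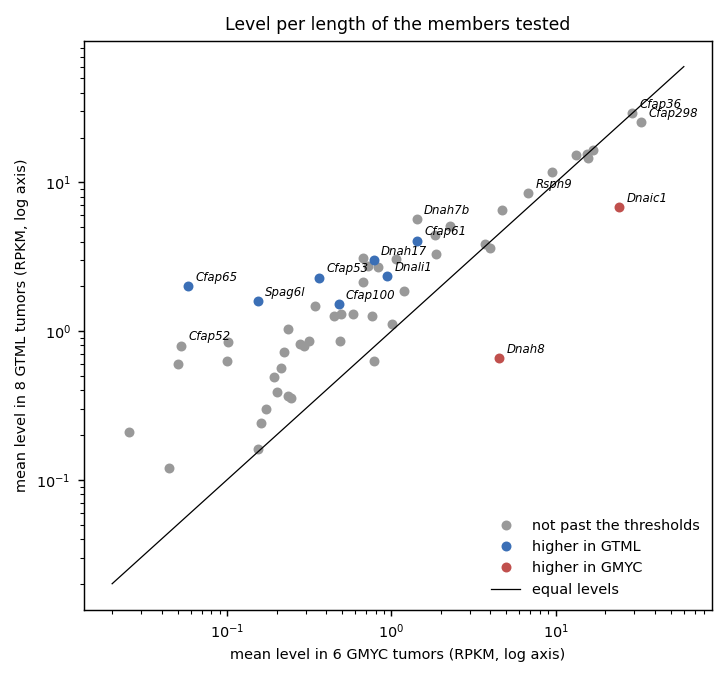
Mean level of each tested member in GMYC (horizontal) and GTML (vertical) tumors, in RPKM on log axes, with the diagonal marking equal levels. Members at the top right, such as Cfap36 (29.1 and 29.0 RPKM) and Cfap298 (33.0 and 25.5 RPKM), lie at the diagonal, most weakly expressed members lie above it, and Dnah8 and Dnaic1 lie below it.

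The promoters of the members were searched because RFX factors bind the control regions of cilium genes. RefSeq promoters of the GRCm38.p6 assembly, 250 bases before to 50 bases after the gene start, were found for 53 of the 64 members, and not for Cfap157, Cfap299, Cfap53, Cfap54, Cfap65, Cfap97, Dnaaf1, Dnah3, Rsph1, Rsph10b and Rsph4a. The RFX half-site GTTGCC, on either strand, was in 20 of the 53 (37.7%), and in 12.7% of all 27025 promoters. The forkhead letters GTAAACA were in 3 members (5.7%; 3.5% of all), the E-box CACGTG in 4 (7.5%; 7.2%) and the OTX or CRX letters TAATCC in 3 (5.7%; 7.2%). A spaced form of the RFX site, searched as well, was in 6 members (11.3%; 1.9% of all), and not in Dnah8 or Dnaic1. Both forms were counted only as exact letters, and the spaced form only at this spacing. A promoter without them, that of Dnah8 or Dnaic1 included, may still hold a variant of the site. A match is a run of letters and not a measured site. The 150 bases before the gene start are printed for 3 members with a half-site there, chosen from the inner arm and central apparatus groups described below, and for the 2 members that were higher in GMYC tumors, in whose promoters the half-site letters were not found. They are written in the direction of the gene, with half-sites in capitals.
Cfap44, chr16:44394649-44394798, plus strand: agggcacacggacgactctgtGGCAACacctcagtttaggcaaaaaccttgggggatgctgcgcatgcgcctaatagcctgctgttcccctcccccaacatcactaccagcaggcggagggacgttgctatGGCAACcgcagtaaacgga
Cfap46, chr7:139683816-139683965, minus strand: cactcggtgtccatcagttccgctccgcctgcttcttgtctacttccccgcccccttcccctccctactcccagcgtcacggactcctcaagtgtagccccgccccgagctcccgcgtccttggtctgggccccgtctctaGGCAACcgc
Dnah10, chr5:124724935-124725084, plus strand: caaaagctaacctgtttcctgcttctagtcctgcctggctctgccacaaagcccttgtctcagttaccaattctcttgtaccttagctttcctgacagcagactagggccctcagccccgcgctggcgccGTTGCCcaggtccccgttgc
Dnah8, chr17:30626786-30626935, plus strand: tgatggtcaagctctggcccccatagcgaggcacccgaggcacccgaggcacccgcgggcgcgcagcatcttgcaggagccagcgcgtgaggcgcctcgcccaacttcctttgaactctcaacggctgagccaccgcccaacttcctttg
Dnaic1, chr4:41569644-41569793, plus strand: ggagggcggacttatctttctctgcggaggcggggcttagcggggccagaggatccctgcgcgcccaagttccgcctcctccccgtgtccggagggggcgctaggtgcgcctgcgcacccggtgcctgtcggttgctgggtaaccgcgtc
The half-site began 129 and 19 bases before the start in Cfap44, 9 bases before it in Cfap46 and 20 bases before it in Dnah10. The 19 tested members with a half-site had a median log2 fold change of 1.39 and the 28 tested members without one of 1.04, a difference that was not tested. By the rule for calls given below, 2 of the 19 (Cfap100 and Spag6l) and 3 of the 28 (Cfap61, Dnah17 and Dnali1) were higher in GTML tumors. In GMYC tumors 0 and 2 were higher, so members without the letters were called in both directions.

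The comparison asked which axoneme genes differ between tumors driven by the 2 MYC genes. More members were higher in GTML tumors than in GMYC tumors, and the 2 members called the other way were parts of the outer dynein arm. A gene was called when edgeR's quasi-likelihood test gave an adjusted p below 0.01 and the log2 fold change lay beyond 1 in either direction. By this rule 7 of the 57 members were higher in GTML (12.3%), where 2.11% of all 21024 genes tested were, and 2 were higher in GMYC (3.51%), where 1.1% were. The 7 were Cfap65, Spag6l, Cfap53, Dnah17, Cfap100, Cfap61 and Dnali1, and the 2 were Dnah8 and Dnaic1. The log2 fold change (GTML over GMYC) was above 0 for 49 members (86.0%; 52.5% of all genes tested), and its median was 1.30 against 0.04 for all genes tested. The 9 calls were not kept equally often when 1 tumor was left out. Calls over all genes tested also varied in these fits, from 0.353% (without GMYC 3) to 4.96% (without GTML 2) higher in GTML. A lost call is therefore not by itself a sign that it rested on the tumor left out. Dnah17 and Dnali1 had an adjusted p of 0.0094 with all tumors, close to the threshold. Dnah8 and Cfap53 passed both thresholds in all 14 fits that left out 1 tumor each, with adjusted p up to 0.0041 and 0.0015. Dnaic1 passed in 9 of them (lost without GMYC 1, 3, 5 or 6 or GTML 5), Cfap100 in 9 (lost without GMYC 3, 5 or 6 or GTML 5 or 7), and Cfap61 in 8 (lost without GMYC 1, 3, 4 or 5 or GTML 5 or 7). Cfap65 passed in 6 (lost without GMYC 1, 3, 4, 5 or 6 or GTML 5, 7 or 8) and Spag6l in 5 (lost without the same tumors or GTML 6). Dnah17 passed only without GTML 1, 2 or 3, and Dnali1 only without GTML 1 or 2. In none of these fits did the adjusted p of these 9 members exceed 0.027. Under limma-voom, the tool the study used, Cfap65 (adjusted p = 0.024), Spag6l (0.018) and Dnah17 (0.027) were not called and the other 6 were.

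**Figure D2:**
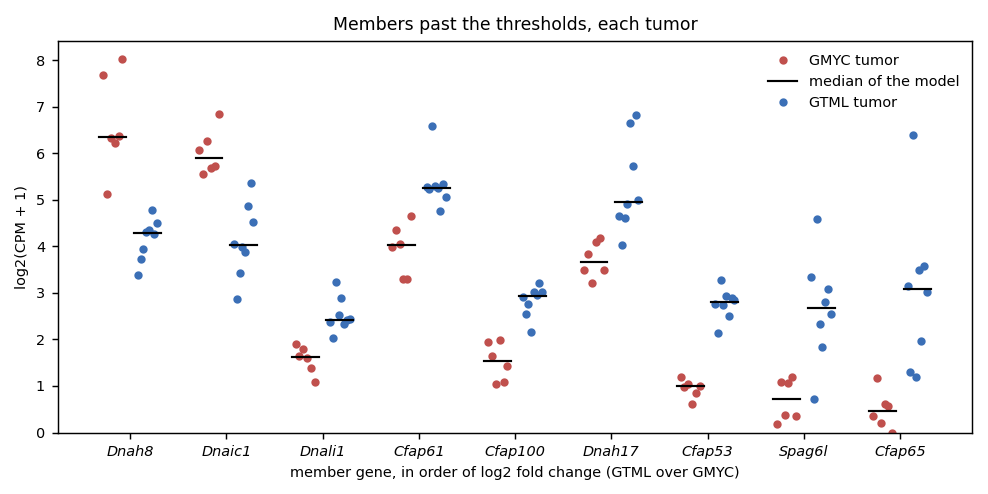
Level of the 9 members past the thresholds in each tumor, as log2(CPM + 1), with points for tumors and bars for the median of each model. For Dnah8 and Dnaic1 every GTML tumor lies below every GMYC tumor, for Dnali1, Cfap61, Cfap100, Cfap53 and Cfap65 every GTML tumor lies above every GMYC tumor, and for Dnah17 and Spag6l 1 GTML tumor lies within the GMYC range.

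Dnah8, the heavy chain that takes the gamma position of the outer arm in sperm flagella, was the clearest member higher in GMYC tumors. Its CPM in GMYC tumors 1 to 6 was, in order, 203, 34.1, 79.0, 73.1, 82.2 and 258. In GTML tumors it ran from 9.50 to 26.7 CPM (median 18.6). The models did not overlap, and GMYC 1 and GMYC 6 stood well above the other GMYC tumors. The log2 fold change was -2.78 (SE 0.38, adjusted p = 0.0013, edgeR's quasi-likelihood test). Dnaic1 followed the same order of models, from 46.1 to 114 CPM (median 59.0) in GMYC and from 6.33 to 40.3 CPM (median 15.3) in GTML. GMYC 6 was again the highest tumor, and GTML 7 came closest to the GMYC range. Its log2 fold change was -1.83 (SE 0.34, adjusted p = 0.0048). Exons of Dnaic1 share 0.5% of their bases with Enho on the opposite strand, and whether strand was used in counting is not given in the sources used here.

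No other outer arm heavy chain was called higher in GMYC. Dnah17, the beta-position chain of sperm flagella, was higher in GTML tumors, from 15.4 to 113 CPM (median 30.1) beside 8.25 to 17.04 CPM (median 11.8) in GMYC tumors. GTML 7 and GTML 5 (98.9 CPM) were far above the rest, and GTML 2 lay within the GMYC range. The log2 fold change was 1.94 (SE 0.44, adjusted p = 0.0094). Dnah9 and Dnah11, beta-position chains of cilia, had log2 fold changes of 1.56 (adjusted p = 0.025) and 0.81 (adjusted p = 0.039) and were not called. Dnah5, the gamma-position chain of cilia, had a log2 fold change of 0.06 (SE 0.70, adjusted p = 0.96), and without GTML 3, its highest tumor (10.8 CPM, next 2.37 CPM), the value was -0.85 (adjusted p = 0.29). The gamma and beta chains known from sperm were therefore called in opposite directions. Dnaic2, the partner intermediate chain of Dnaic1, ran from 3.51 to 18.6 CPM in GMYC and from 2.27 to 59.1 CPM in GTML, with a log2 fold change of 0.82 (adjusted p = 0.34). The ranges overlapped, and without GTML 3, the highest tumor, the log2 fold change was 0.04.

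Inner arm heavy chains leaned to GTML without a call. All 7 tested members had a log2 fold change above 0 (median 1.43), and 5 had an adjusted p under 0.05, as did 21.2% of all genes tested. Dnah1 was the only one whose models did not overlap, from 1.07 to 4.84 CPM (median 4.75) in GMYC and from 5.36 to 14.6 CPM (median 11.2) in GTML. Its log2 fold change was 1.43 (SE 0.35) and its adjusted p of 0.013 missed the threshold. Dnah2, which with Dnah10 forms the double-headed inner arm, ran from 5.37 to 14.8 CPM in GMYC and from 2.76 to 141 CPM in GTML (median 33.7). GTML 2 was the only GTML tumor not above the GMYC range, and the log2 fold change was 2.20 (SE 0.60, adjusted p = 0.019). Dnah10 had the same arrangement at lower levels, with 2.68 to 3.63 CPM in GMYC, 1.95 to 14.4 CPM in GTML and a log2 fold change of 1.34 (adjusted p = 0.024). The most abundant was Dnah7b, a single-headed chain, at 2.26 to 62.4 CPM (median 22.9) in GMYC and 15.9 to 323 CPM (median 101) in GTML. Its log2 fold change was 1.98 (SE 0.69, adjusted p = 0.051). Dnah7b has near-identical copies, so its counts may hold their reads and are uncertain. Dnah3 and Dnah12 were weakly expressed, with at most 1.00 and 0.70 CPM in GMYC tumors, and had log2 fold changes of 1.42 (adjusted p = 0.027) and 2.95 (adjusted p = 0.017). The highest Dnah12 level, 10.4 CPM, was in GTML 1 and the next highest was 2.37 CPM, and without GTML 1 its log2 fold change was 2.11. Dnah6 had a log2 fold change of 0.62 (adjusted p = 0.43).

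Among the proteins that dock or tether the inner arms, Cfap100 was called and all 4 members had a log2 fold change above 0 (median 1.68). Cfap100, part of the complex that modifies inner arm activity, ran from 1.07 to 2.96 CPM (median 1.90) in GMYC and from 3.46 to 8.28 CPM (median 6.64) in GTML. The models did not overlap, no single tumor stood apart, and the log2 fold change was 1.65 (SE 0.31, adjusted p = 0.0045). Cfap44, a tether protein required for sperm flagella, was at most 2.56 CPM in GMYC tumors and ran from 0.49 to 36.9 CPM in GTML tumors. GTML 3 alone set its top, the next highest being 8.38 CPM, and its log2 fold change of 3.04 (adjusted p = 0.044) was 1.73 without GTML 3 (adjusted p = 0.12). Cfap57 had a log2 fold change of 1.71 (adjusted p = 0.037) and Cfap43, the partner of Cfap44, of 0.93 (adjusted p = 0.13). Dnali1, the light intermediate chain of the inner arms, was called and did not overlap between models. It ran from 1.13 to 2.72 CPM (median 2.06) in GMYC and from 3.08 to 8.47 CPM (median 4.38) in GTML. Its log2 fold change was 1.30 (SE 0.29, adjusted p = 0.0094), close to the threshold.

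All 9 tested central apparatus members had a log2 fold change above 0 (median 1.504), and Spag6l was called. Spag6l, a protein of the central pair projections, ran from 0.14 to 1.29 CPM (median 0.69) in GMYC and from 0.65 to 22.9 CPM (median 5.44) in GTML. GTML 2 was the GTML tumor within the GMYC range, and the log2 fold change was 3.33 (SE 0.70, adjusted p = 0.0071). Spag6, its near-identical copy, had a log2 fold change of 2.08 (adjusted p = 0.027), and reads of the pair may have been split between them. Cfap46 was above the GMYC range in 7 of 8 GTML tumors, with at most 1.48 CPM in GMYC, up to 14.1 CPM in GTML and a log2 fold change of 2.60 (SE 0.66, adjusted p = 0.015). Cfap69 ran from 8.61 to 20.9 CPM in GMYC and from 14.8 to 73.1 CPM in GTML, with a log2 fold change of 1.25 (adjusted p = 0.016). Cfap54 was the most variable of the more abundant ones, at 1.27 to 36.9 CPM in GMYC and 7.63 to 98.1 CPM in GTML, and its log2 fold change of 1.504 had an adjusted p of 0.074. Cfap70 (1.93, adjusted p = 0.043), Spag16 (1.504, adjusted p = 0.080), Cfap74 (1.40, adjusted p = 0.072) and Cfap221 (0.77, adjusted p = 0.33) had log2 fold changes above 0 and were not called.

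Of the 9 tested radial spoke members 7 had a log2 fold change above 0 (median 1.49), and Cfap61 was called. Cfap61, a spoke-associated protein, did not overlap between models, at 8.84 to 24.0 CPM (median 15.2) in GMYC and 26.1 to 95.3 CPM (median 37.4) in GTML. GTML 3 stood apart from the other GTML tumors, of which the next highest had 39.7 CPM. The log2 fold change was 1.49 (SE 0.31, adjusted p = 0.0067), and 1.22 without GTML 3 (adjusted p = 0.0067). Rsph10b had a log2 fold change of 1.67 (adjusted p = 0.011), Rsph4a, a spoke head protein, of 2.09 (adjusted p = 0.079) and Cfap206 of 1.69 (adjusted p = 0.11). Cfap206 had 34.9 CPM in GTML 3 and at most 6.56 CPM in the other GTML tumors, and its log2 fold change was 0.38 (adjusted p = 0.51) without GTML 3. Rsph14 was at most 0.32 CPM in GMYC tumors and its log2 fold change of 3.47 (SE 0.98, adjusted p = 0.023) rests on few reads. Rsph9 (0.32), Rsph3b (0.06), Rsph3a (-0.12) and Rsph1 (-0.33) had log2 fold changes with adjusted p of at least 0.45. Rsph3a and Rsph3b are near-identical copies and their counts are uncertain.

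Cfap53, a microtubule inner protein needed for left-right patterning and for sperm flagella, had the smallest adjusted p of all members. In GMYC tumors 1 to 6 it had, in order, 1.29, 0.98, 1.07, 0.54, 0.80 and 0.99 CPM. In GTML tumors it ran from 3.41 to 8.63 CPM (median 6.03), with the lowest value in GTML 2. The models did not overlap and the GMYC tumors lay close together. The log2 fold change was 2.63 (SE 0.29, adjusted p = 0.00032). Cfap52, another inner protein, was at most 0.32 CPM in GMYC tumors and had a log2 fold change of 3.73 (SE 0.94, adjusted p = 0.014). Its GTML median was 0.90 CPM, with 8.137 CPM in GTML 3 and 2.365 CPM in the next highest. The fold change rests on few reads, and without GTML 3 the gene fell below the filter. Cfap126 (0.64, adjusted p = 0.31) and Cfap45 (0.57, adjusted p = 0.47) were not called. Cfap20, an inner junction protein found in most cells, had 62.9 to 101 CPM in GMYC and 59.9 to 95.5 CPM in GTML, with a log2 fold change of -0.02 (SE 0.13).

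Cfap65, an axonemal protein required for sperm flagella, had the largest fitted fold change of the members tested. It had at most 1.26 CPM in GMYC tumors (median 0.38), and in GTML tumors 1 to 8 it had, in order, 7.92, 1.46, 83.0, 1.27, 10.3, 2.90, 10.9 and 7.17 CPM. GTML 3 was far above the others, and GTML 4 and GTML 2 lay just above the GMYC range. The log2 fold change was 5.04 (SE 1.07, adjusted p = 0.0076), and 3.66 without GTML 3 (adjusted p = 0.0069). Of the remaining CFAP genes, Cfap97d2 (1.41), Cfap157 (1.17, adjusted p = 0.028) and Cfap77 (1.15) had log2 fold changes above 1 and were not called. Cfap58 (0.14), Cfap97 (0.01) and Cfap36 (0.00) had log2 fold changes near 0, with standard errors of 0.40, 0.10 and 0.15.

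Dynein assembly factors and the nexin-dynein regulatory complex held no call. Of the 6 assembly factors 4 had a log2 fold change above 0 (median 0.26), and none had an adjusted p under 0.05. Dnaaf2, which helps fold heavy chains, had 47.5 to 64.6 CPM in GMYC and 32.3 to 76.9 CPM in GTML, with a log2 fold change of -0.11 (SE 0.17). Cfap298 had a log2 fold change of -0.37 (SE 0.15, adjusted p = 0.087), with 5 of 8 GTML tumors below the lowest GMYC tumor. Dnaaf1 (0.73), Dnaaf3 (0.53), Cfap300 (0.31) and Dnaaf5 (0.21) had adjusted p of at least 0.12. Exons of Dnaaf1 share 20.7% of their bases with Taf1c on the opposite strand, so its counts may hold reads of that gene. Drc1 and Drc3, of the regulatory complex, had log2 fold changes of 1.39 (adjusted p = 0.061) and 0.47 (adjusted p = 0.25).

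**Figure D3:**
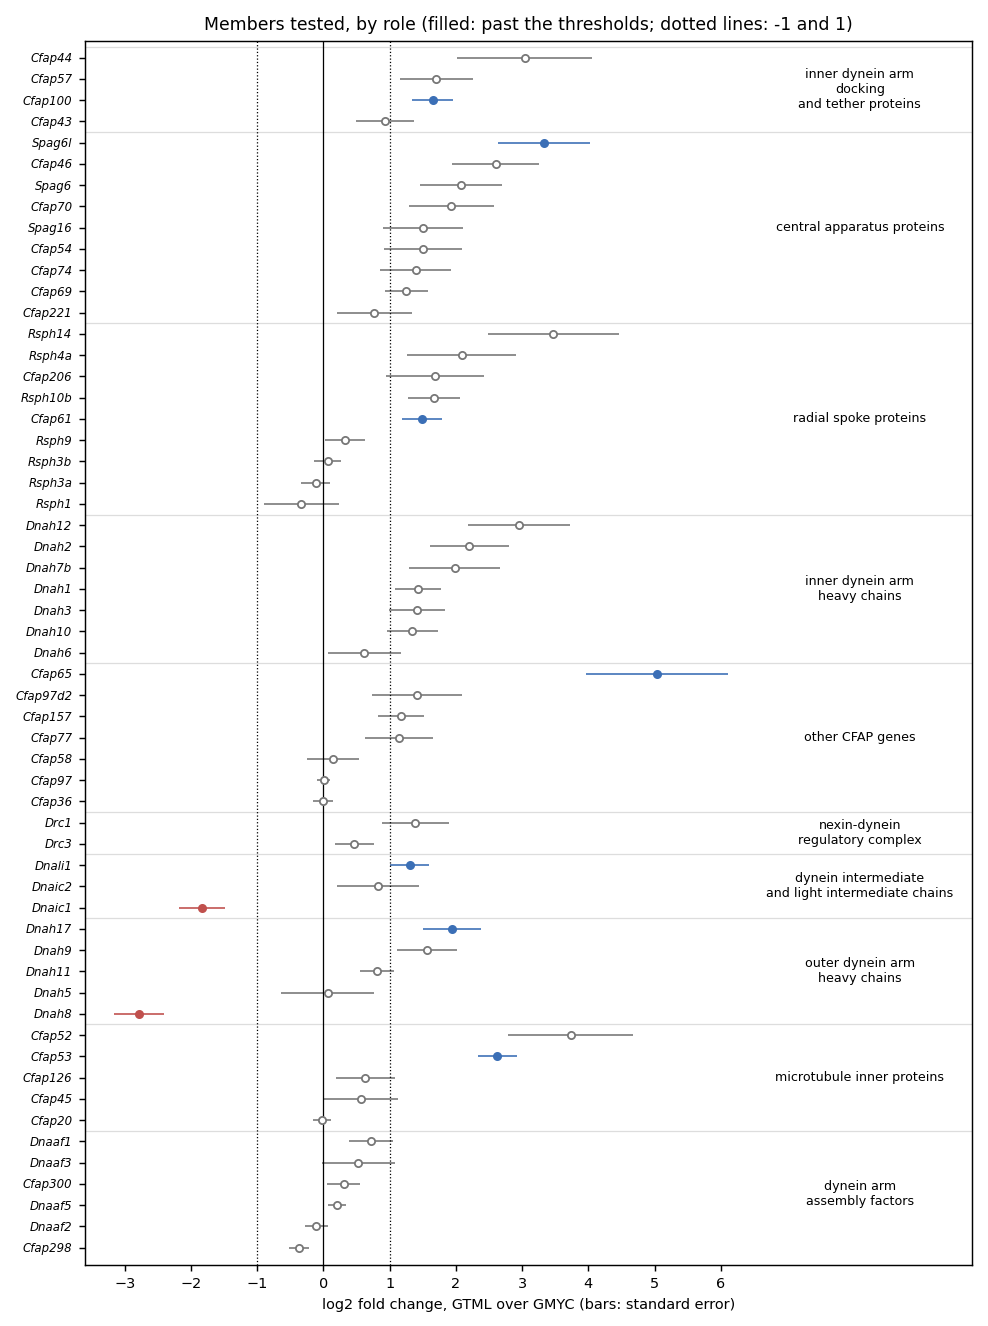
Log2 fold change (GTML over GMYC) of the 57 tested members with its standard error, grouped by role, filled blue for members called higher in GTML and red for members called higher in GMYC. All inner arm heavy chains and central apparatus members lie right of 0, the assembly factors lie within 1 of 0 (-0.37 to 0.73), and the outer arm and intermediate chain groups hold members on both sides.

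The tumors of 1 model did not carry the members equally. GTML 3 was the highest GTML tumor for 34 of the 57 members (59.6%), where it was highest for 16.5% of all genes tested. GTML 2 was the lowest GTML tumor for 33 members (57.9%; 23.3% of all genes). The median log2(CPM + 1) of the members ran from 1.27 (GMYC 6) to 2.21 (GMYC 4) in GMYC tumors. In GTML tumors it ran from 1.78 (GTML 2) to 3.79 (GTML 3), with the other 6 between 2.43 and 3.27, so GTML 2 was the only GTML tumor inside the GMYC range. Without GTML 2, 19 of 57 members were called higher in GTML (33.3%), where 4.96% of all genes were, and 2 higher in GMYC, where 2.8% were, and these 21 included all 9 calls made with every tumor. The 12 further members were Cfap46, Cfap52, Cfap69, Cfap157, Dnah1, Dnah2, Dnah3, Dnah9, Dnah10, Dnah12, Rsph10b and Rsph14, with 5 of the 7 inner arm heavy chains among them. Cfap52 and Rsph14 (at most 0.32 CPM in GMYC tumors) and Dnah12 (at most 0.70 CPM) passed the filter through GTML tumors alone. Without GTML 3, Cfap52 and Rsph14 fell below the filter and could not be tested. Without both GTML 2 and GTML 3, 16 members were called higher in GTML (3.94% of all genes were) and 2 higher in GMYC (1.83%), and the median log2 fold change was 1.14. Over all tumors, 6 members had every GTML tumor above every GMYC tumor (10.5%; 2.14% of all genes tested) and 2 had every one below (3.51%; 2.48%).

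**Figure D4:**
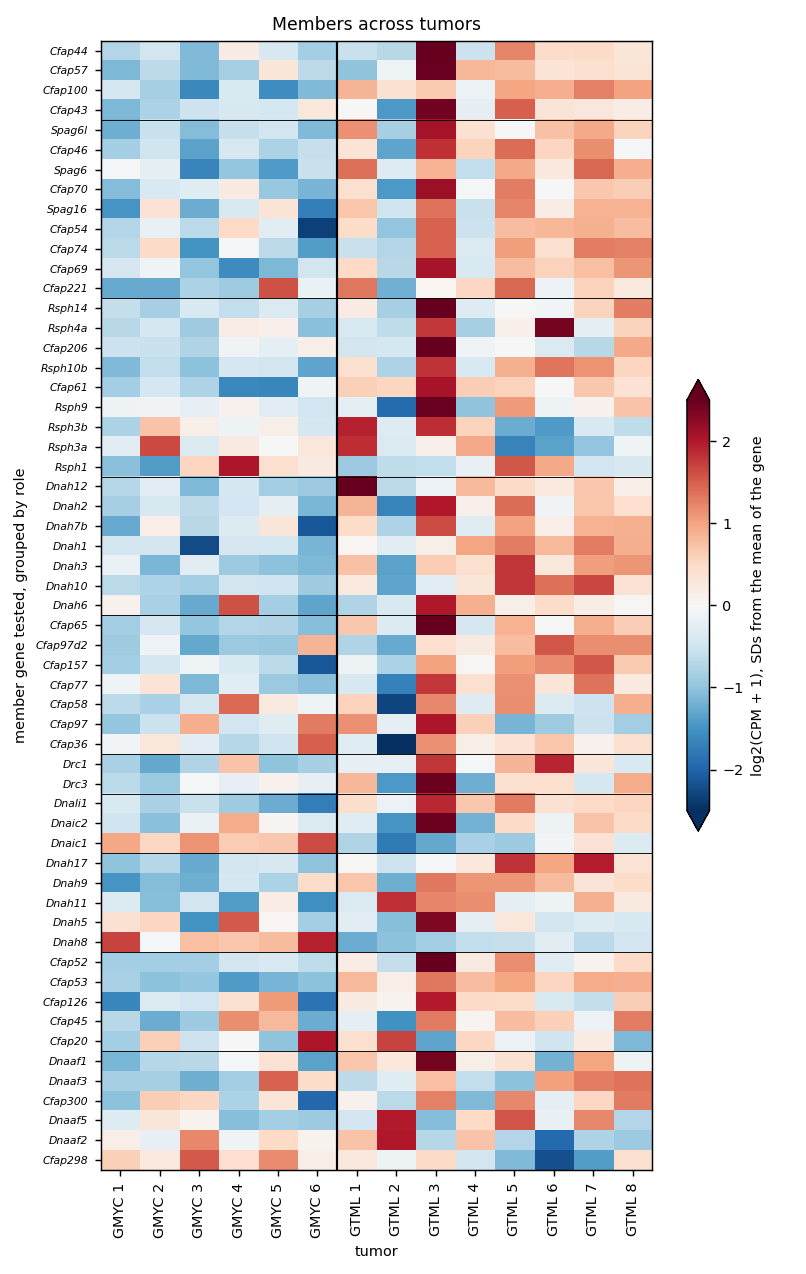
Level of the 57 tested members in each of the 14 tumors, as log2(CPM + 1) in standard deviations from the mean of the gene, grouped by role, with a line between the models. GTML 3 is the darkest red column (highest GTML tumor for 34 members), GTML 2 resembles the GMYC columns for many members, and Dnah8 and Dnaic1 show the opposite order of models.

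Small nucleolar RNAs took a share of each library that divided the tumors at 0.3%, with GMYC 1 to 4 and GTML 1 and 2 above it, a division seen in the counts and not given by the labels. On the side with the lower share Dnah8 had a log2 fold change of -3.10 (adjusted p = 0.0034) and Cfap53 of 2.79 (adjusted p = 0.012). On the side with the higher share the values were -3.15 (adjusted p = 0.23) and 2.24 (adjusted p = 0.22), and no member was called there, where 0 and 2 of all 18921 genes tested were called higher in GTML and in GMYC. The median over members was 1.47 on the lower side and 0.27 on the higher side, where GTML 2 is 1 of the 2 GTML tumors. With a term for the split in the model, 2 members were called in each direction, and 0.804% and 0.604% of all genes were called higher in GTML and in GMYC. With a covariate from Y-linked counts, Cfap53 was the only member called (adjusted p = 0.0029), and 0.238% of all genes were called higher in GTML. Dnah8 (log2 fold change -2.69, adjusted p = 0.014) and Dnaic1 (-1.38, adjusted p = 0.044) missed the threshold in that fit.

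A list of other axoneme genes, which the naming rule misses, gave a background of the same pathway. Of its 53 tested genes 47 had a log2 fold change above 0 (median 0.84), as did 52.5% of all genes tested. At an unadjusted p under 0.05 in edgeR's test 26 were higher in GTML and 0 in GMYC. Of all 21024 genes tested 4280 and 3658 were. By the rule for calls 4 were higher in GTML (7.55%), where 2.11% of all genes were, and 0 in GMYC, where 1.1% were. The 4 were Hydin, a central apparatus protein (log2 fold change 3.57, adjusted p = 0.0033), Ak7, an adenylate kinase of cilia (2.20, adjusted p = 0.0031), Ccdc114, a docking protein of the outer arm (1.90, adjusted p = 0.0036), and Ribc2, an inner protein (3.71, adjusted p = 0.0094). Without GTML 2 the list had 10 calls higher in GTML (19.2%), where 4.96% of all genes tested were called. Ccdc114 thus differed in the direction opposite to the outer arm genes Dnah8 and Dnaic1.

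Of 16 tested regulators of multiciliation and ciliogenesis, 2 were called higher in GTML (12.5%), where 2.11% of all genes tested were. As a list they leaned little, with 10 log2 fold changes above 0 (62.5%; 52.5% of all genes tested) and a median of 0.19. At an unadjusted p under 0.05 in edgeR's test 5 were higher in GTML and 2 in GMYC. Rfx1 ran from 30.6 to 51.4 CPM in GMYC and from 53.6 to 122 CPM in GTML (log2 fold change 1.02, adjusted p = 0.0065), and Deup1, which builds extra centrioles, had a log2 fold change of 1.91 (adjusted p = 0.0098). Foxj1 ran from 0.84 to 6.32 CPM in GMYC and from 1.14 to 23.1 CPM in GTML, with the highest value in GTML 3. Its log2 fold change of 1.81 had an adjusted p of 0.040, and 0.012 without GTML 2. Rfx3 (-0.20, adjusted p = 0.26) and Mcidas (-0.61, adjusted p = 0.52) were not called, and Gmnc was too low to test.

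Markers of cells that a biopsy could hold were summed beside the members. The 15 ependymal markers summed to 34.1 to 49.7 CPM in GMYC tumors and to 54.9 to 93.2 CPM in GTML tumors, without overlap. Of the 15, 4 stayed under 1 CPM in every tumor, Ccdc153 among them with at most 0.39 CPM. Of 10 tested, 9 had a log2 fold change above 0, as did 52.5% of all genes tested, and 0 were called in edgeR's quasi-likelihood test. At an unadjusted p under 0.05 in that test 4 were higher in GTML, as were 4280 of all 21024 genes tested. The 12 choroid plexus markers summed to 42.3 to 175 CPM in GMYC and 43.1 to 175 CPM in GTML, with Ttr, the main choroid plexus transcript, at most 1.68 CPM. The 15 photoreceptor markers, genes that Group 3 medulloblastoma is known to express, summed to 630 to 820 CPM in GMYC and 219 to 2350 CPM in GTML. GTML 2 was lowest and GTML 3 highest, as for the members. All 15 were tested, and 12 had a log2 fold change above 0, with a median of 1.72 (1.30 for the members). At an unadjusted p under 0.05 in edgeR's test 10 were higher in GTML and 0 in GMYC. With all tumors 0 were called, and without GTML 2, 8 were called higher in GTML (53.3%; 4.96% of all genes). The lean to GTML was thus not particular to axoneme genes. The astrocyte and oligodendrocyte markers summed to 288 to 866 CPM in GMYC and 194 to 603 CPM in GTML, and the cerebellar neuron markers to 358 to 626 and 276 to 437 CPM. The part of these cell types in the member differences was not tested, and in bulk tissue fewer cells of a type and less RNA per cell cannot be told apart. Otx2, a medulloblastoma gene, ran from 237 to 377 CPM over all tumors (log2 fold change 0.03, adjusted p = 0.85).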

How the data were processed

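RNA from frozen tumor biopsies was sequenced on an Ion Torrent platform. The authors aligned reads to mm9 with STAR and then Bowtie, counted them per gene with featureCounts on a GENCODE annotation, and deposited whole-number counts without normalization. The submitters' notes name STAR 2.4.0, Bowtie2 2.2 and Subread 1.5.2. Strand and duplicate handling are not given in the sources used here. Symbols and exon lengths came from GENCODE M21 (GRCm38), matched by Ensembl identifier for 32620 of 37310 genes (87.4%), and no mm9 coordinates are given. A further 18 columns of cell line counts match no sample label by name and were not used, so the cultured lines were not compared.

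The models were set against each other by the quasi-likelihood test of edgeR 4.0.16 (R 4.3.3) after TMM scaling, with Benjamini-Hochberg adjustment over all genes tested. A gene was tested if at least 3 tumors exceeded a CPM of 1, and called at an adjusted p below 0.01 with a log2 fold change above 1 or below -1. The study's own tool, limma-voom (limma 3.58.1), DESeq2 1.42.0 and other settings were alternatives. CPM use TMM-scaled totals, and RPKM divide them by exon kilobases. Any 2 tumors of a model differed by more than sampling noise. Members, roles and gene lists were chosen with earlier results of these data known. Genes named with full values were those called with all tumors or without GTML 2, Cfap53, Cfap65, Dnah8, the 2 members of each role with the highest RPKM, called genes of the other lists, and Foxj1, Rfx3, Mcidas, Gmnc, Ccdc153, Ttr and Otx2. The other members were named, after their values were seen, to account for each. p-values measure the spread between these biopsies.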

Additional observations from a re-analysis of the deposited data

Results flagged for a closer look

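In 13 of 66 groups of tumors examined (33 members in each model), 1 tumor lay farther from the others of its model than Dixon's 95% limit. For normally distributed values about 3.3 would be found by chance. In 10 of the 13 this tumor was GTML 3. Its CPM was 323.5 for Dnah7b (next highest GTML tumor 149.8), 95.31 for Cfap61 (39.71), 83.03 for Cfap65 (10.91), 62.77 for Drc3 (34.61) and 59.11 for Dnaic2 (15.62). It was 36.86 for Cfap44 (8.383), 22.92 for Spag6l (9.151), 8.137 for Cfap52 (2.365), 8.137 for Rsph14 (2.592) and 7.14 for Cfap126 (3.507). The other 3 were GTML 1 for Dnah12 (10.38 CPM, next 2.367), GMYC 6 for Dnah9 (10.59 CPM, next 5.113) and GMYC 4 for Drc1 (3.498 CPM, next 1.07). In all 13 the tumor was the highest of its model. The limit was applied to CPM without a log, which need not be normally distributed, and members were named partly for being called. Groups that share a tumor are also not independent of each other, so the 3.3 is only a rough guide.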

How the results depend on the processing

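With all tumors, 7 members were called higher in GTML and 2 in GMYC, 4 other axoneme genes and 2 regulators were called higher in GTML, and the median log2 fold change of members was 1.30. DESeq2 called 21 members and 12 other axoneme genes higher in GTML (6.26% of all genes, 2.11% in edgeR), and limma-voom 4 members and 1 regulator (1.99% of all genes). DESeq2 size factors, library size without TMM and filterByExpr (8 members, 1 regulator) kept the member counts within 1.5 times. Without a filter on low counts 5 members and 0 regulators were called higher in GTML, and so were 5 and 0 when the test was kept to protein-coding genes. Adding the small nucleolar RNA side to the model left 2 members, 1 other axoneme gene and 0 regulators, and a covariate from Y-linked counts 1, 0 and 0, with 0 members higher in GMYC (0.238% and 0.0428% of all genes). Tumors with the lower small nucleolar RNA share gave 0 members, 0 other axoneme genes and 0 regulators higher in GTML and 1 member higher in GMYC. Those with the higher share gave 0 members in either direction, 0 and 0 genes of the other lists, and a median of 0.27. With fewer tumors or an added term, the cause of a lower count was not tested. 2 fits were added with the data in view, one without GTML 2 and GTML 3 (16 members, 7 other axoneme genes, 1 regulator) and one of tumors numbered 1 to 6 with no block (1, 1 and 0).

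Leaving out 1 tumor at a time gave 1 to 19 members higher in GTML and 1 to 2 higher in GMYC, 1 to 10 other axoneme genes, 0 to 2 regulators higher in GTML and 0 to 1 in GMYC, and a median of 1.01 to 1.38. Member counts higher in GTML moved past 1.5 times without GTML 2 (19), GTML 6 (4), GTML 8 (3), GMYC 1, 4 or 6 (2 each) and GMYC 3 or 5 and GTML 5 or 7 (1 each). Over all genes tested, the share called higher in GTML ran from 0.353% to 4.96% in these fits.

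The labels number tumors in both models, but tumors of the same number did not deviate together (r from -0.21 to 0.21), so the numbers were not taken as pairs. With the replicate number as a block, 0 members were called in either direction, and 0 other axoneme genes and 0 regulators, with a median of 0.98, where 2 and 1 of all 20617 genes were called.

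Over 33 named members, 760 of their alternative values kept their side of the thresholds, 108 fell below a threshold and 35 rose above one. The 760 include values of uncalled members whose direction changed. The log2 fold change of Dnaic2, for example, was 0.82 in the main fit and -0.08 with the Y-linked covariate, and that of Rsph9 was 0.32 and -0.12. Planned comparisons of cultured lines were not run. Members under about 1 CPM had few reads, so their fold changes are imprecise.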
